A study of Mus musculus with 18 samples.

Results

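Heat shock chaperones are 10 genes here, of 19919 genes listed in the tables of 18 RNA-seq libraries. They were chosen by symbol, after earlier results of these libraries had been seen, from the FPKM tables of the 3 progenitor populations, and which measured values led to the choice is not recorded. Their adjusted p-values are therefore given as descriptions. They comprise *Hspa1a* and *Hspa1b* (the stress-inducible HSP70 pair), *Hspa8* (the constitutive cytosolic HSP70), *Hsph1* (the nucleotide exchange factor HSP110), *Hspb1* (the small heat shock protein HSP27), *Hsp90aa1* and *Hsp90ab1* (the inducible and the constitutive cytosolic HSP90), *Dnajb1* (an HSP40 that hands clients to HSP70), and *Hspd1* with *Hspe1* (the mitochondrial chaperonin HSP60 and its lid HSP10). All 10 genes were listed in each population, and all 10 passed the expression filter (0.5 FPKM or more on average) in each.

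The libraries came from bone marrow of C57BL/6 mice aged 6 to 8 weeks, and RNA was sequenced after sorting 3 lineage-negative populations. Multipotent progenitors (MPPs) were gated on CD34 and FLT3 among Sca-1+ CD117+ cells. The CD115- common dendritic cell progenitors (CD115- CDPs) had FLT3 and intermediate CD117 but no CD11c, CD127 or CD115, and common lymphoid progenitors (CLPs) had CD127, FLT3, Sca-1 and CD117 but no CD11c. In each population 3 libraries were labelled WT (Trim33fl/fl without Cre) and 3 were labelled KO (Trim33fl/fl Cre-ERT2). Mice of both genotypes received 2 mg tamoxifen on 5 days and were taken 7 days later, so the drug was shared by the groups while the Cre recombinase was present in the KO mice only. Cre-ERT2 acted systemically, hence cells outside the sorted populations had also been exposed to deletion of *Trim33* exons 2 to 4. The labels do not say whether libraries of a group came from separate mice, and p-values then measure only the spread between these libraries.

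The heat shock response works through heat shock factor 1, a transcription factor held inactive by chaperones, which binds heat shock elements when unfolded protein accumulates and drives *Hspa1a*, *Hspa1b*, *Hspb1*, *Hsph1*, *Dnajb1* and *Hsp90aa1*. *Hspa8* and *Hsp90ab1* are made in unstressed cells at high level and fold newly made proteins. HSP60 and HSP10 form the folding chamber of the mitochondrial matrix, and their genes lie head to head on a shared promoter.

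The genotype labels were checked with *Trim33* itself. In MPPs it was listed at 10.42, 10.12 and 8.78 FPKM in WT libraries 1, 2 and 3 and at 9.71, 11.66 and 4.80 FPKM in KO-labelled libraries 1, 2 and 3, so it did not separate the genotypes. The ranges overlapped in CD115- CDPs and CLPs as well, but there each KO-labelled library lay below the WT library of its number. The *Trim33* differences were -0.74 and -0.37 on the log2(FPKM + 1) scale, and with the replicate number as a block that in CD115- CDPs passed limma's test (adjusted p = 0.0258, against 0.528 without the block) and that in CLPs did not (0.0727 and 0.255). The deleted exons are a small stretch of the transcript, so gene-level FPKM checks the deletion poorly, and libraries are called KO-labelled below. Among the defining markers of the gates, *Flt3* was present in all 18 libraries at 146.80 to 329.52 FPKM, *Kit* was highest in WT MPPs at 71.63 to 74.80 FPKM and *Il7r* was highest in CLPs at 32.56 to 63.03 FPKM. *Csf1r*, which encodes CD115, was at 136.77 FPKM in CD115- CDP WT library 3 against 9.24 to 57.03 FPKM in the other CD115- CDP libraries, although the gate removed CD115-positive cells. The spacing of low FPKM values gave an estimated depth of 19300000 to 21200000 mapped reads per library. WT MPP libraries 1 and 2 were the most alike of all replicate pairs, but their counts still differed by 2.31 times the sampling variance (median over genes).

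The promoters shown here carry, or lack, the heat shock element, and they allow the inducible members to be set beside the sequence that heat shock factor 1 recognizes. An element is made of alternating units TTC and GAA spaced by 2 bases, so that a pair of units reads TTCNNGAA or GAANNTTC. Both motifs equal their own reverse complement, and a search of 1 strand covers both. RefSeq promoter windows (GRCm38.p6) matched 7 of the 10 members, and the 250 bases upstream of each start were searched. At least 1 pair was present in 12.8% of all 32851 windows in the table, at least 2 pairs in 1.46%, and a run of 3 units in 0.466%. In the lines below capitals mark the paired units and the other bases are in lower case, each read 5′ to 3′ along the gene.
Hspa1a: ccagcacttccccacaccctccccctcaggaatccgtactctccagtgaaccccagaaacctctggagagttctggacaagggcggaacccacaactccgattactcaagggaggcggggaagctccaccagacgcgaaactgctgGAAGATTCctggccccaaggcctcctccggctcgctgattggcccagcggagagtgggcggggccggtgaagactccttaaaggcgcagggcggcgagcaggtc
Hspb1: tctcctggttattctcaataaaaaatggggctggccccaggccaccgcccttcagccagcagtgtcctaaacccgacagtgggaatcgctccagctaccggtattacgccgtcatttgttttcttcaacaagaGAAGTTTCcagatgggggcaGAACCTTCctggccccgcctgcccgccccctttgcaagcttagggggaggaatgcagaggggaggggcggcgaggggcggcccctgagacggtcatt
Dnajb1: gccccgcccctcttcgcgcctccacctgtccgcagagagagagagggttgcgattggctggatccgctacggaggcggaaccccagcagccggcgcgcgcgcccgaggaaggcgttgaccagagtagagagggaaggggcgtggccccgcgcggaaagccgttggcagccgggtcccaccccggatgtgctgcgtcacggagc
Hspe1: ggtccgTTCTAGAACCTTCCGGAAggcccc

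The *Hspa1a* stretch lies at chr17:34972157-34972406 on the minus strand, directly upstream of a gene with 1 exon (chr17:34969359-34972156), and it held 1 pair 104 bases before the start. *Hspa1b* (chr17:34956429-34959238, 1 exon) had its pair at the same distance, and the 250 bases upstream of both genes differed at 3 positions. The *Hspb1* stretch (chr5:135887669-135887918, plus strand, upstream of 3 exons at chr5:135887919-135889563) held 2 pairs, 117 and 97 bases before the start. The *Dnajb1* stretch (chr8:83607972-83608174, plus strand, upstream of 3 exons at chr8:83608175-83612653) held none, nor did the window of its other start. That absence says only that these letters are not in these windows.

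The *Hspe1* stretch (chr1:55088053-55088082, plus strand) lies before *Hspe1* (chr1:55088148-55091317, 4 exons) and inside the span of *Hspd1* (chr1:55077833-55088243, 12 exons, minus strand), which overlaps that of *Hspe1*. It held a run of 4 units 89 bases before the start of *Hspe1*. The same run stood 144 bases before 1 of the 2 starts of *Hspd1* in the table. *Hsph1* (chr5:149616843-149636498, 18 exons) had 1 pair, at 33 and 54 bases from its 2 starts. No window was matched for *Hspa8* (chr9:40801276-40805202), *Hsp90aa1* (chr12:110691036-110696395) or *Hsp90ab1* (chr17:45567778-45573261).

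In CD115- CDPs and CLPs the inducible HSP70 pair differed more between libraries of the same genotype label than between the genotype means. *Hspa1a* and *Hspa1b* are 10120 bases apart, and 58.8% of the 50-base windows of the *Hspa1a* transcript also occur in that of *Hspa1b* (62.3% in the other direction), so the split of reads between them is uncertain. Their FPKM values followed each other with r = 0.997 over the 18 libraries, and the sum was used beside the single genes. No other members shared a 50-base window.

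In MPPs *Hspa1a* was at 220.60, 203.08 and 195.51 FPKM in WT libraries 1, 2 and 3 and at 10.70, 1.88 and 116.76 FPKM in KO-labelled libraries 1, 2 and 3. *Hspa1b* was at 223.01, 208.04 and 215.65 FPKM in the WT libraries and at 13.20, 2.62 and 141.32 FPKM in the KO-labelled ones. The WT libraries lay close together, and each KO-labelled library lay below them, library 3 by far the least. The summed mean stood at 422 ± 18.8 FPKM among WT and 95.5 ± 141 FPKM among KO-labelled MPPs (SD, n = 3 each), 4.42 times apart. Without KO-labelled library 3 the KO-labelled mean was 14.2 FPKM (n = 2), 29.7 times below WT. The difference of *Hspa1a* on the log2(FPKM + 1) scale was -3.71 (SE 1.21, 95% interval -6.60 to -0.82), and it did not pass limma's test with Benjamini-Hochberg adjustment over all 12372 genes (adjusted p = 0.140). *Hspa1b* likewise did not pass (-3.48, limma adjusted p = 0.152). With 1 library left out the *Hspa1a* difference ranged from -5.16 to -2.48, and it passed without KO-labelled library 3 (-5.16, limma adjusted p = 0.00131), where 54.3% of all genes passed.

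In CD115- CDPs the pair followed the replicate number. *Hspa1a* was at 17.91, 8.68 and 379.58 FPKM in WT libraries 1, 2 and 3 and at 17.50, 5.63 and 232.68 FPKM in KO-labelled libraries 1, 2 and 3. *Hspa1b* was at 13.96, 8.80 and 380.07 FPKM in WT and at 19.87, 4.21 and 237.92 FPKM in the KO-labelled libraries. Library 3 was the high one in both genotypes, and the genotypes overlapped. *Hspa1a* in library 3 exceeded that in library 2 by 43.7 times in WT and by 41.3 times in the KO-labelled group. The genotype difference of *Hspa1a* was -0.43 with a 95% interval that spanned 0 (SE 1.75, limma adjusted p = 0.967).

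The same libraries numbered 3 also held more transcript of neutrophil and monocyte markers and less of early lymphoid and B cell ones. The part of these markers in the result was not tested. The 8 neutrophil markers, none at 0 in all 3 libraries of a group, summed to 4180 FPKM in CD115- CDP WT library 3 and 3940 FPKM in KO-labelled library 3, against 627.8 to 987.9 FPKM in the other 4 libraries. The rise was uneven among them. *Mpo* was at 352.35, 310.58 and 1686.23 FPKM in WT and 331.57, 247.57 and 2117.18 FPKM in KO-labelled libraries 1, 2 and 3. *Camp* was at 8.30, 23.76 and 94.27 FPKM in WT but at 53.77, 43.00 and 57.89 FPKM in the KO-labelled libraries. The 5 monocyte and macrophage markers summed to 1801 FPKM in WT library 3 and 274.7 FPKM in KO-labelled library 3, against 98.39 to 223.8 FPKM elsewhere. In bulk RNA a change in the share of a cell type and a change in RNA per cell cannot be told apart.

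In CLPs the pair reached its highest levels of the series. *Hspa1a* was at 10.56, 448.53 and 788.52 FPKM in WT libraries 1, 2 and 3 and at 29.98, 358.33 and 1067.87 FPKM in the KO-labelled libraries. *Hspa1b* was at 12.34, 383.85 and 887.82 FPKM in WT and at 37.28, 327.44 and 1254.73 FPKM in the KO-labelled libraries. Library 1 was low and libraries 2 and 3 were high in both genotypes, so here 2 libraries of 3 were high rather than 1 as in CD115- CDPs. The genotype difference of *Hspa1a* was 0.51 (SE 1.68, limma adjusted p = 0.872). The neutrophil markers did not show library 1 as the low one in WT CLPs, with 454.8, 970.7 and 393.3 FPKM in libraries 1, 2 and 3. They did in KO-labelled CLPs, at 224.7, 388.9 and 342.6 FPKM. The 4 B cell markers did so in both genotypes, at 159.7, 350.1 and 482.1 FPKM in WT and 134.5, 311.5 and 306.2 FPKM in KO-labelled libraries. The part of either marker set in the result was not tested.

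*Hspb1*, an ATP-independent holdase, followed the HSP70 pair at a far lower level per length. In MPPs it was at 2.58, 2.84 and 3.27 FPKM in WT and at 0.49, 0.52 and 2.48 FPKM in KO-labelled libraries 1, 2 and 3, with no overlap and with a difference of -0.97 (SE 0.333, limma adjusted p = 0.153, and 0.000940 at -1.37 without KO-labelled library 3). The CD115- CDP values were 0.54, 0.29 and 2.89 FPKM in WT and 0.57, 0.27 and 5.54 FPKM in the KO-labelled libraries. The CLP values were 0.06, 6.83 and 20.37 FPKM in WT and 0.71, 9.34 and 48.95 FPKM in the KO-labelled libraries. Library 3 was the highest in all 6 groups. The value of 0.06 FPKM in CLP WT library 1 corresponds to about 1 read at the estimated depth, so no fold against it is given. In CLPs each KO-labelled library lay above the WT library of its number, and the difference of 0.77 passed only with the replicate number as a block (SE 1.31 and limma adjusted p = 0.747 without it, 0.0130 with it). The replicate numbers were taken to pair libraries in CD115- CDPs and CLPs but not in MPPs. The limits of that choice are set out with the methods.

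**Figure D1:**
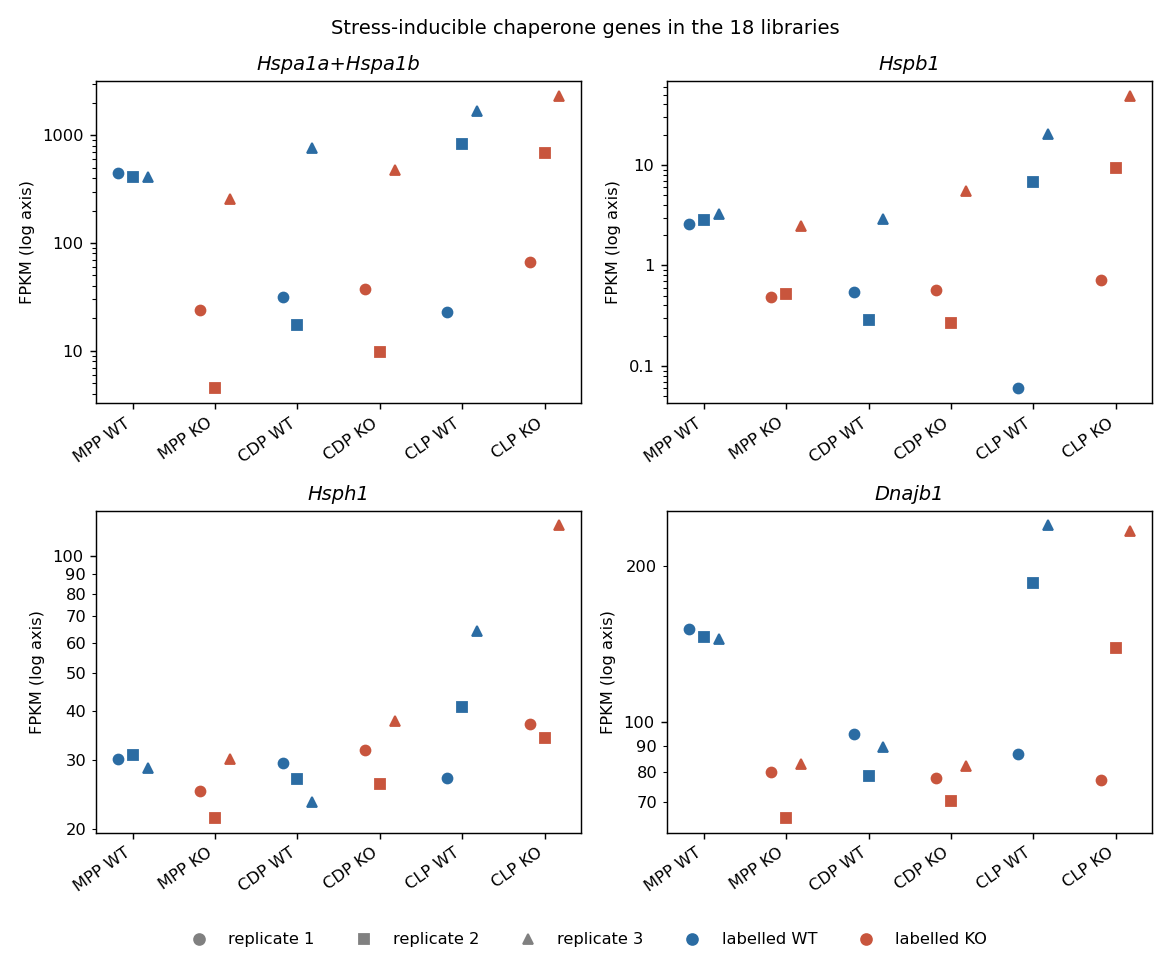
FPKM (log axis) of the summed *Hspa1a* and *Hspa1b*, *Hspb1*, *Hsph1* and *Dnajb1* in each of the 18 libraries, 1 point per library, by population and genotype label, with the marker giving the replicate number. The WT MPP libraries sit together in every panel, and in CLPs the library numbered 3 is the highest of its group in all panels.

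*Hsph1*, which recharges HSP70 with ATP, varied less. In MPPs it was at 30.07, 30.96 and 28.68 FPKM in WT and at 24.90, 21.29 and 30.08 FPKM in KO-labelled libraries 1, 2 and 3. In CD115- CDPs the values were 29.48, 26.79 and 23.41 FPKM in WT and 31.78, 26.03 and 37.79 FPKM in the KO-labelled libraries. In CLPs they were 26.89, 40.91 and 64.19 FPKM in WT and 37.02, 34.07 and 119.92 FPKM in the KO-labelled libraries. The genotypes overlapped in each population, and CLP library 3 stood highest in both. No genotype difference passed, with -0.24, 0.24 and 0.36 in MPPs, CD115- CDPs and CLPs (limma adjusted p = 0.307, 0.701 and 0.663).

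*Dnajb1*, the HSP40 that delivers unfolded clients to HSP70, was lower in KO-labelled MPPs. It was at 150.85, 145.97 and 144.72 FPKM in WT and at 80.14, 65.21 and 82.98 FPKM in KO-labelled libraries 1, 2 and 3. The groups were far apart, and KO-labelled library 3, intermediate for the HSP70 pair, was as low as the other two for *Dnajb1*. The mean of 147.2 ± 3.24 FPKM (SD, n = 3) in WT stood against 76.11 ± 9.55 FPKM (SD, n = 3) in KO-labelled MPPs, 48.3% lower. The difference of -0.95 (SE 0.107, 95% interval -1.21 to -0.69) passed limma's test (adjusted p = 0.00949). Without any 1 of the 3 WT libraries the difference was -0.96 to -0.93 and its adjusted p 0.0715 to 0.0820 by limma, when 54 to 60 of all genes passed in place of 475.

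In the other populations *Dnajb1* did not pass. In CD115- CDPs it was at 94.58, 78.67 and 89.36 FPKM in WT and at 77.87, 70.33 and 82.08 FPKM in KO-labelled libraries 1, 2 and 3 (difference -0.19, SE 0.133, limma adjusted p = 0.681). Among CLPs it was at 86.75, 185.71 and 239.65 FPKM in WT and at 77.21, 138.62 and 233.96 FPKM in the KO-labelled libraries (difference -0.21, SE 0.445, limma adjusted p = 0.804). The genotypes overlapped in both, although each KO-labelled library lay below the WT library of its number. In CLPs *Dnajb1* had the order of the HSP70 pair, with library 3 above library 1 by 2.76 times in WT and 3.03 times in the KO-labelled group.

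Marker sums of several cell types and most immediate early genes were lower beside the MPP difference. The 8 erythroid markers summed to 360.4 to 389.6 FPKM in WT and 32.07 to 57.83 FPKM in KO-labelled MPPs. The 8 neutrophil markers summed to 3369 to 3501 FPKM in WT and 1490 to 2472 FPKM in KO-labelled MPPs, and the 5 monocyte and macrophage markers to 520.5 to 539.7 FPKM and 156.6 to 228.4 FPKM. The 4 MPP and stem cell markers stood at 95.94 to 97.96 FPKM in WT and 60.53 to 61.82 FPKM in KO-labelled MPPs. The sums of the B cell, megakaryocyte and dendritic cell markers were lower without overlap as well, while those of the T and NK cell and the early lymphoid markers overlapped. Not every marker within the lower sums fell. *Elane* was at 161.87 to 203.53 FPKM in WT and 116.51 to 246.96 FPKM in KO-labelled MPPs, and *Prtn3* at 322.81 to 336.53 and 224.76 to 383.18 FPKM. The erythroid *Hbb-bt* was at 42.89 to 63.08 and 31.43 to 49.05 FPKM. *Mecom*, *Batf3*, *Tcf4* and *Gp9* overlapped as well. None of these markers was at 0 in all 3 libraries of either MPP group. Of 18 immediate early genes, which encode short-lived factors induced within minutes of a stimulus, 11 fell in KO-labelled MPPs, led by *Egr1* (-3.02, SE 0.132), *Btg2* (-2.04), *Socs3* (-0.98) and *Jun* (-1.85), with limma adjusted p of 0.000568, 0.00182, 0.00732 and 0.00854. Of all genes tested 3.52% fell. The median of the 18 was -1.0, beside -0.11 over all genes tested. The part of these genes in the chaperone values was not tested.

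The differences between replicate numbers were tested directly by asking whether any number differed from number 1 within a population, with the genotypes together. By limma's F test 8 of 10 members passed, where 25.4% of all 12421 genes passed. The adjusted p was 0.000516 for *Hspb1*, 0.00148 for *Dnajb1*, 0.00540 for *Hspa1a*, 0.00537 for *Hspa1b*, 0.0188 for *Hspa8*, 0.0240 for *Hsp90aa1* and *Hspe1* and 0.0265 for *Hsph1* by this limma test. *Hspd1* and *Hsp90ab1* did not pass (limma adjusted p = 0.0924 and 0.464). Without CD115- CDP WT library 3 or without CLP WT library 1 the count was 4, namely *Hspa1a*, *Hspa1b*, *Hspb1* and *Dnajb1*. Of all genes 512 and 2192 then passed, in that order, in place of 3157.

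The fitted contrast of CLP library 3 with library 1 was 5.60 for *Hspa1a*, 5.55 for *Hspa1b*, 4.60 for *Hspb1*, 1.52 for *Dnajb1* and 1.45 for *Hsph1* on the log2 scale. It was positive for 10 of 10 members and smallest for *Hsp90ab1* at 0.20. In CD115- CDPs the contrast of library 3 with library 1 was 3.99 and 4.09 for the HSP70 pair and 1.70 for *Hspb1*, and it ranged from -0.19 to 0.29 for the other 7 members. *Dnajb1* and *Hsph1* thus shared the high library 3 in CLPs, while in CD115- CDPs their contrasts were 0.00 and -0.04. The contrast of CLP library 2 with library 1 was 4.41 for *Hspa1a*, 0.96 for *Dnajb1* and 0.24 for *Hsph1*, which was lower in library 2 than in library 1 of the KO-labelled group. In MPPs the HSP70 contrasts of 1.58 and 1.64 came from the KO-labelled libraries, since the WT libraries differed by at most 1.13 times.

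**Figure D2:**
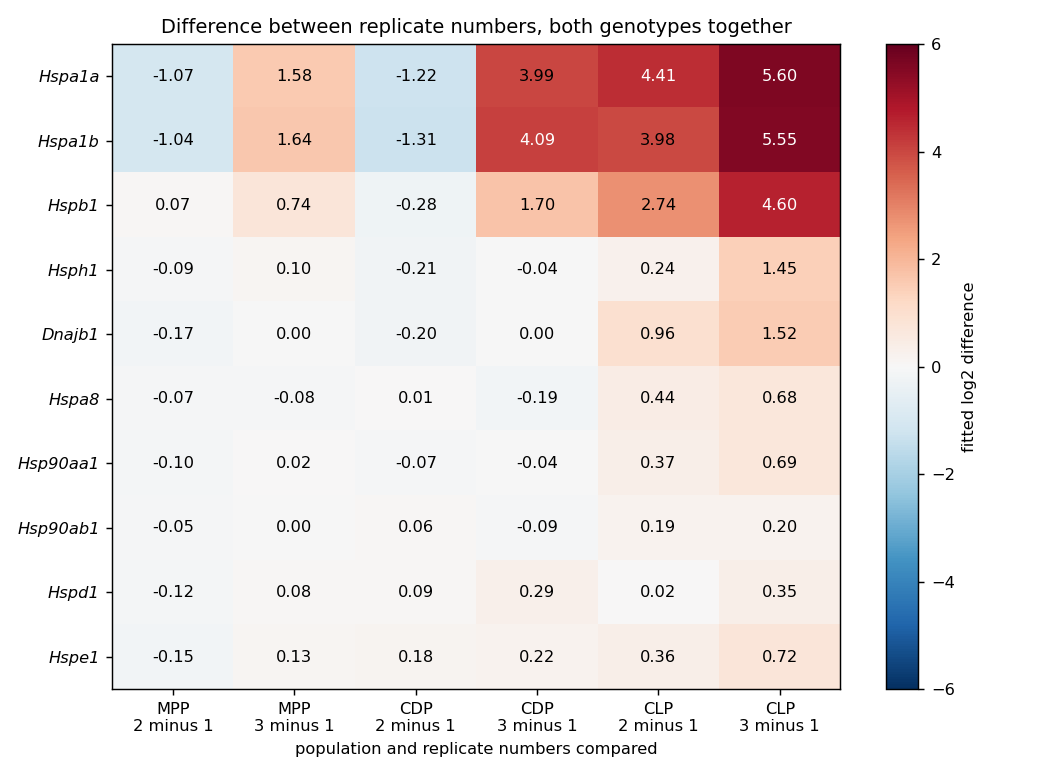
Fitted log2 differences of libraries numbered 2 or 3 from libraries numbered 1, by population and with the genotypes together, for the 10 genes; colour runs from -6 (blue) to 6 (red). The largest values are in the CLP column for 3 minus 1, 5.60 for *Hspa1a* and 4.60 for *Hspb1*. In the rows from *Hspa8* down the largest value is 0.72, for *Hspe1* in the same column.

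Genes most like the HSP70 pair were sought among 8515 non-member genes that averaged 5 FPKM or more. On deviations from the 6 group means the closest was *Dusp1* (r = 0.958 over 18 libraries), a MAP kinase phosphatase and an immediate early gene, followed by *Ppp1cc* (0.936), *Hist1h1d* (0.926), *I730030J21Rik* (0.922) and *Snord14e* (0.917). On the values themselves the closest were *Mtg1* (0.891), *Exosc3* (0.890), *Rbmxl1* (0.887), *Mitd1* (0.885) and *Rnf41* (0.885). The points share libraries and depth, and these r values are descriptions.

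*Dusp1* was at 883.36, 843.98 and 906.81 FPKM in WT MPPs and at 142.14, 90.99 and 367.90 FPKM in KO-labelled MPPs 1, 2 and 3. In CD115- CDPs it was at 139.31, 65.22 and 382.67 FPKM in WT and at 133.80, 115.79 and 277.70 FPKM in the KO-labelled libraries. Among CLPs it was at 184.22, 607.05 and 613.61 FPKM in WT and at 194.54, 441.66 and 495.82 FPKM in the KO-labelled libraries. Within each CD115- CDP and CLP group, and within KO-labelled MPPs, the libraries high in the HSP70 pair were those high in *Dusp1*. Between groups this did not hold. *Dusp1* was highest in WT MPPs, whereas the highest HSP70 sum, 2322.60 FPKM, was in KO-labelled CLP library 3. By the replicate-number test 13 of 18 immediate early genes passed, *Dusp1* and *Fos* among them, but not in 1 direction: the CD115- CDP contrast of library 3 with library 1 was -4.24 for *Nr4a1* and -2.43 for *Atf3*. The part of the immediate early genes in the chaperone values was not tested.

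**Figure D3:**
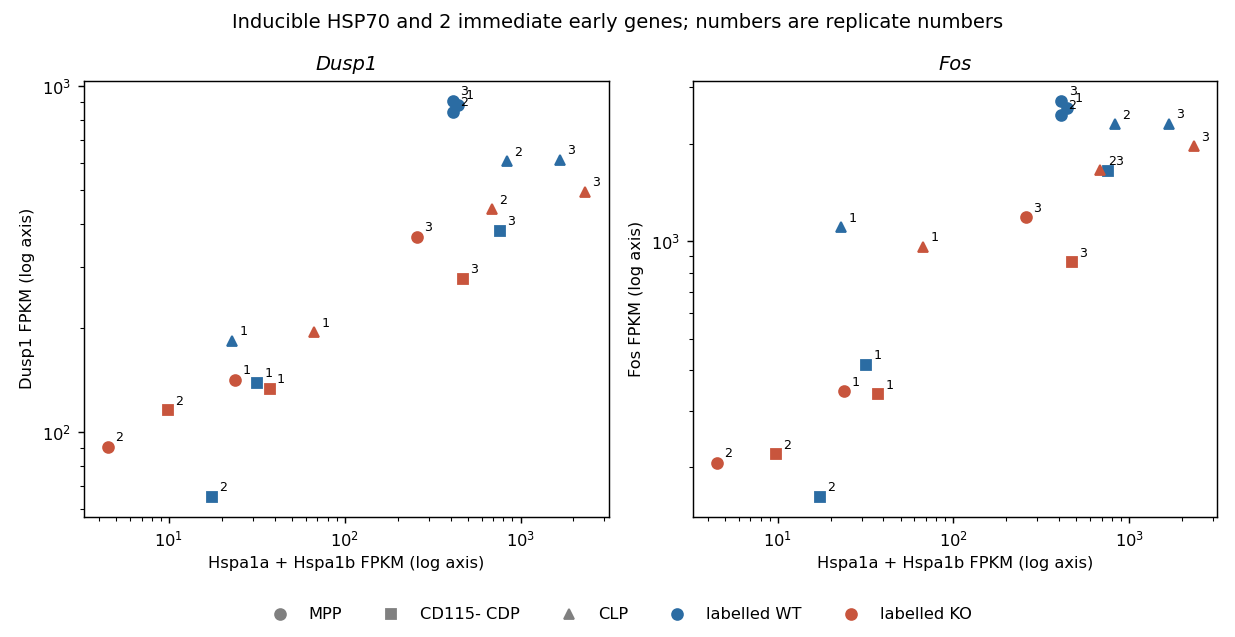
*Dusp1* and *Fos* against the summed *Hspa1a* and *Hspa1b* in the 18 libraries (FPKM, log axes), with marker shape for the population, colour for the genotype label and the replicate number beside each point. Libraries with a low HSP70 sum, 4.50 FPKM in KO-labelled MPP library 2 for instance, lie at the low end of *Dusp1* (90.99 FPKM), and the WT MPP libraries lie at the top of both panels.

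The constitutive chaperones were abundant, and no genotype difference of *Hspa8* passed. *Hspa8*, per length the most abundant of the 10 members in all libraries, was at 2258.95, 2252.28 and 2214.93 FPKM in WT and 2310.15, 2088.11 and 2113.93 FPKM in KO-labelled MPPs. In CD115- CDPs it was at 2279.57, 2171.34 and 1931.71 FPKM in WT and 2422.16, 2584.85 and 2207.64 FPKM in the KO-labelled libraries. The CLP values were 1599.07, 2376.79 and 2854.50 FPKM in WT and 2040.96, 2513.50 and 2945.20 FPKM in the KO-labelled libraries. The genotypes overlapped in each population, and over the 18 libraries the highest value was 1.84 times the lowest. Both extremes were CLPs, where *Hspa8* had its lowest value in library 1 and its highest in library 3 of each genotype. The genotype differences were -0.05, 0.18 and 0.16 in MPPs, CD115- CDPs and CLPs (limma adjusted p = 0.654, 0.618 and 0.705).

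*Hsp90ab1* lay higher in every KO-labelled library than in every WT library of its population. In MPPs it was at 1759.06, 1716.00 and 1735.25 FPKM in WT and 1958.95, 1875.58 and 1976.99 FPKM in KO-labelled libraries 1, 2 and 3. In CD115- CDPs it was at 1615.69, 1705.36 and 1461.89 FPKM in WT and 2089.59, 2155.70 and 2029.14 FPKM in the KO-labelled libraries. The CLP values were 1326.93, 1698.99 and 1668.06 FPKM in WT and 1997.65, 2030.47 and 2098.23 FPKM in the KO-labelled libraries. The ratios of the means were 1.12, 1.31 and 1.31 in MPPs, CD115- CDPs and CLPs. The differences of 0.16 (SE 0.0608), 0.39 (SE 0.0951) and 0.39 (SE 0.143) did not pass (limma adjusted p = 0.183, 0.305 and 0.109), and that in CD115- CDPs passed with the replicate block (limma adjusted p = 0.0388). KO-labelled libraries lay above WT without overlap for 6.98%, 7.68% and 15.3% of all genes tested in the 3 populations, in that order.

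*Hsp90aa1*, the more stress-responsive HSP90, was at 492.39, 493.38 and 516.13 FPKM in WT and 510.21, 444.94 and 503.59 FPKM in KO-labelled MPPs, with overlap. In CD115- CDPs it was at 469.54, 465.43 and 423.40 FPKM in WT and 528.33, 484.55 and 557.55 FPKM in the KO-labelled libraries, with none. In CLPs it was at 338.94, 402.60 and 518.78 FPKM in WT and 446.19, 630.56 and 754.69 FPKM in the KO-labelled libraries, where each KO-labelled library exceeded the WT library of its number by 1.32, 1.57 and 1.46 times. The CLP difference of 0.53 (SE 0.219) passed only with the replicate block (limma adjusted p = 0.150 without and 0.0112 with it). In MPPs and CD115- CDPs the differences were -0.04 and 0.21 (limma adjusted p = 0.726 and 0.544).

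Of the mitochondrial chaperonin genes, *Hspd1* rose in KO-labelled CLPs and *Hspe1* did not pass the test. *Hspd1*, which encodes HSP60, was at 117.71, 123.41 and 166.60 FPKM in WT and at 203.97, 201.29 and 235.72 FPKM in KO-labelled CLPs 1, 2 and 3. The ranges did not overlap, and the means of 135.9 ± 26.7 FPKM and 213.7 ± 19.2 FPKM (SD, n = 3 each) differed by 1.57 times. The difference of 0.66 (SE 0.146, 95% interval 0.33 to 1.0) passed limma's test (adjusted p = 0.0192, and 0.00324 with the replicate block). Without WT library 2 or KO-labelled library 3 the limma adjusted p was 0.0849 and 0.0754. Beside it the 5 CDP and dendritic cell markers, none at 0 in all 3 libraries of a group, summed to 1322 to 1503 FPKM in WT and 185 to 226.4 FPKM in KO-labelled CLPs. The 5 monocyte and macrophage markers summed to 224.2 to 293.1 FPKM in WT and 59.17 to 97.27 FPKM in KO-labelled CLPs, and the 8 erythroid markers to 34.44 to 56.62 FPKM and 5.62 to 9.86 FPKM. The part of these markers in the *Hspd1* difference was not tested.

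In CD115- CDPs *Hspd1* was at 122.49, 140.21 and 141.61 FPKM in WT and at 199.98, 197.27 and 259.38 FPKM in the KO-labelled libraries. The ranges were again apart, and the means of 134.8 ± 10.7 FPKM and 218.9 ± 35.1 FPKM (SD, n = 3 each) differed by 1.62 times. The difference of 0.69 (SE 0.149) passed with the replicate block but not without it (limma adjusted p = 0.0210 and 0.253). In MPPs *Hspd1* was at 170.67, 167.13 and 176.62 FPKM in WT and at 188.43, 163.71 and 204.88 FPKM in the KO-labelled libraries, with overlap (difference 0.11, SE 0.0983, limma adjusted p = 0.486).

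*Hspe1*, which encodes the lid HSP10, was at 149.58, 153.91 and 157.25 FPKM in WT and 192.92, 240.33 and 248.69 FPKM in KO-labelled CD115- CDPs. The ranges did not overlap, and the difference of 0.55 (SE 0.133) passed with the replicate block only (limma adjusted p = 0.297 without and 0.0283 with it). In CLPs it was at 112.26, 161.82 and 218.59 FPKM in WT and 157.43, 179.96 and 220.77 FPKM in the KO-labelled libraries, where the genotypes overlapped (difference 0.22, SE 0.231, limma adjusted p = 0.578). In MPPs it was at 157.14, 151.07 and 181.20 FPKM in WT and 175.82, 148.31 and 182.04 FPKM in the KO-labelled libraries (difference 0.05, SE 0.113, limma adjusted p = 0.802). *Hspd1* and *Hspe1*, whose spans overlap near the stretch printed above, followed each other with r = 0.756 over 18 libraries and 0.783 on deviations from group means.

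**Figure D4:**
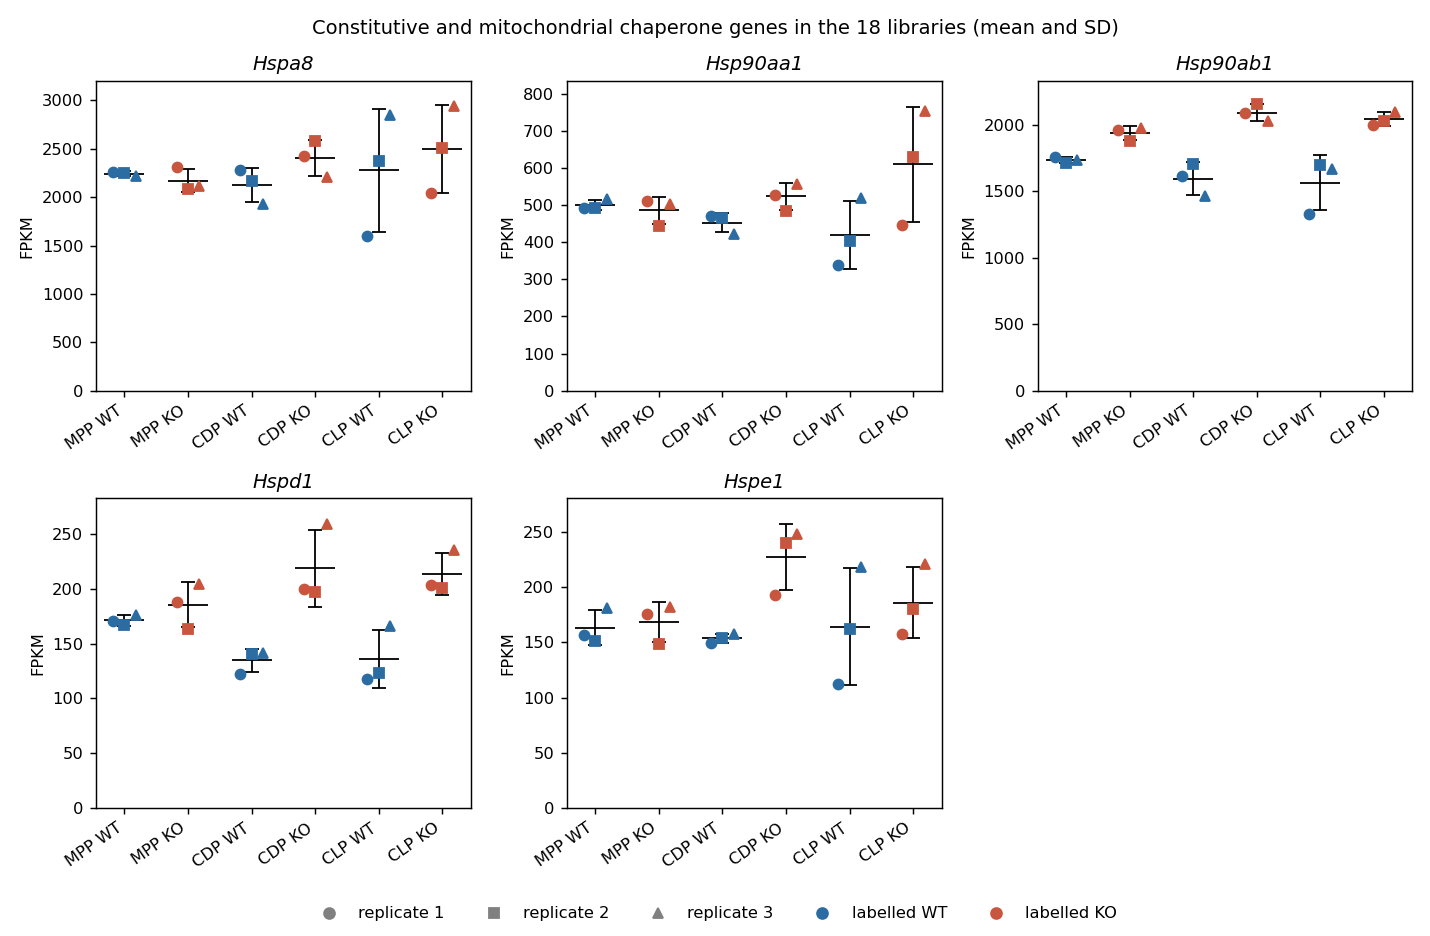
FPKM of *Hspa8*, *Hsp90aa1*, *Hsp90ab1*, *Hspd1* and *Hspe1* in the 18 libraries on axes from 0, 1 point per library, with the horizontal line at the group mean and bars of 1 SD (n = 3). The KO-labelled points of *Hsp90ab1* lie above the WT points in each population, and those of *Hspd1* do so in CD115- CDPs and CLPs.

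Counted over the 10 members, 1 fell and 0 rose in KO-labelled MPPs, where 3.84% of all 12372 genes passed in either direction, 0.315% higher and 3.52% lower. The lower call was *Dnajb1*. By ranges 4 members lay below WT without overlap (*Hspa1a*, *Hspa1b*, *Hspb1* and *Dnajb1*), against 23.3% of all genes, and 1 lay above (*Hsp90ab1*), against 6.98%. The median difference was -0.14, beside -0.11 over all genes. Without KO-labelled library 3 the count was 5 (*Hspa1a*, *Hspa1b*, *Hsph1*, *Hspb1* and *Dnajb1*) and 54.3% of all genes passed, so the larger count stands beside a far larger background. Without the libraries numbered 3 of both genotypes, a setting chosen after seeing the data, it was also 5, beside 49.6% of all genes. In that library the 6 CLP and early lymphoid markers summed to 1087 FPKM, against 460.1 and 569.2 FPKM in the other KO-labelled MPPs, and the part of this in the result was not tested.

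In CD115- CDPs 0 members passed by limma, where 0.106% of all 12229 genes passed. At an unadjusted p of at most 0.05 the count was 3 members, *Hsp90ab1*, *Hspd1* and *Hspe1*, beside 10.5% of all genes. The same 3 passed with the replicate block, when 9.34% of all genes passed and 3.78% were higher. By ranges 4 members lay above WT without overlap (*Hsp90aa1*, *Hsp90ab1*, *Hspd1* and *Hspe1*), against 7.68% of all genes. Below WT lay 0 members, against 10.6% of all genes. The median difference was 0.23, beside -0.07 over all genes.

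In CLPs 1 member rose, *Hspd1*, where 14.3% of all 12339 genes passed and 5.41% were higher. With the replicate block 3 passed, *Hspb1*, *Hsp90aa1* and *Hspd1*, beside 20.9% of all genes. By ranges 2 members lay above WT without overlap (*Hsp90ab1* and *Hspd1*), beside 15.3% of all genes. The median difference was 0.45, beside 0.01 over all genes.

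**Figure D5:**
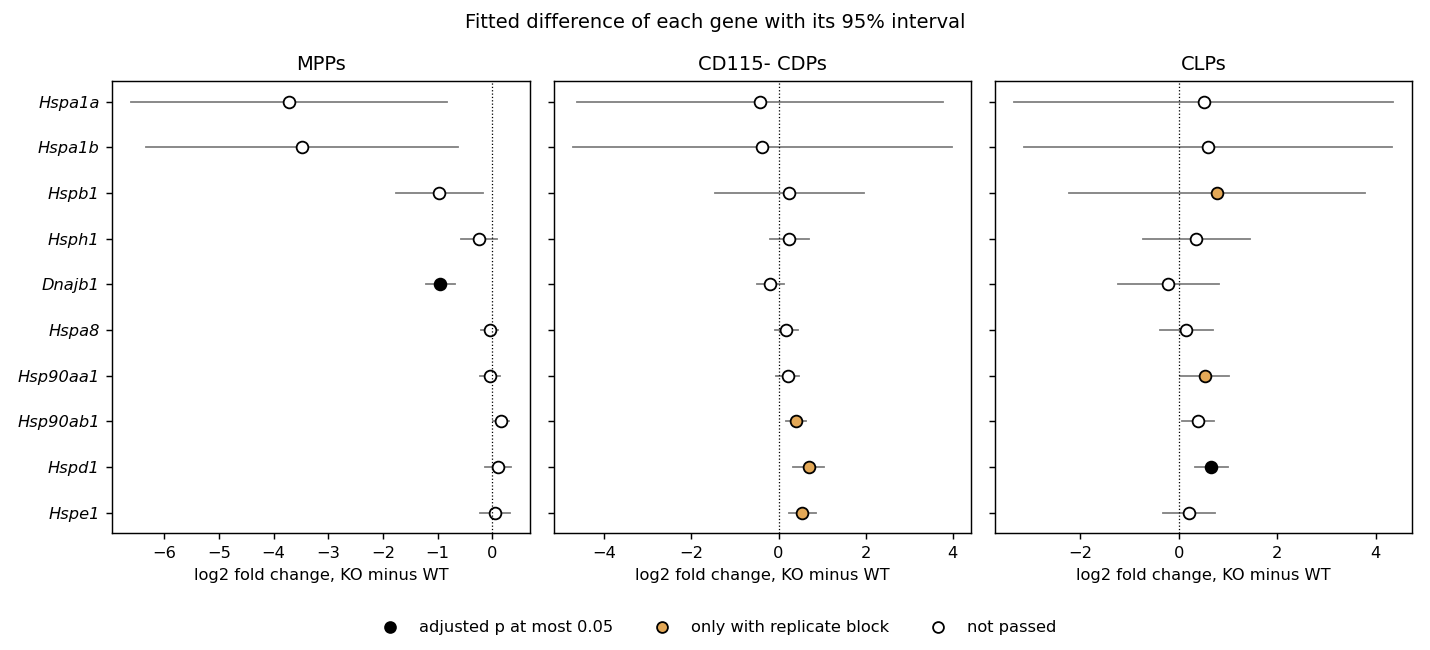
Fitted KO minus WT difference on the log2(FPKM + 1) scale with its 95% interval for each gene in MPPs, CD115- CDPs and CLPs; filled points passed limma's test at an adjusted p of at most 0.05, amber points passed only with the replicate block, and the panels differ in axis range. The intervals of *Hspa1a*, *Hspa1b* and *Hspb1* are wide in CD115- CDPs and CLPs, and *Dnajb1* in MPPs (-0.95) and *Hspd1* in CLPs (0.66) are the filled points.

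Whether the genotype difference itself differed between populations was tested with interaction terms, which 0 of 10 members passed by limma, where 2.45% of all 12421 genes passed. At an unadjusted p of at most 0.05 the count was 1 member, *Hspd1* (limma adjusted p = 0.190), beside 15.8% of all genes. With the replicate block, whose numbers were not taken to pair the MPP libraries, 4 members passed, beside 8.67% of all genes. They were *Dnajb1*, *Hspb1*, *Hspd1* and *Hsp90aa1*, with limma adjusted p of 0.0114, 0.0237, 0.0332 and 0.0424. Without the libraries numbered 3, a setting chosen after seeing the data, *Hspd1* alone passed (limma adjusted p = 0.0206) and 15.4% of all genes did.

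Levels of the 3 populations are set side by side without a test, since each population came as its own table and the table cannot be told apart from the population. In WT, *Hspd1* was higher in MPPs than in either other population without overlap, by 1.27 times over CD115- CDPs and 1.26 times over CLPs. *Hsp90ab1* was also higher in WT MPPs, by 1.09 and 1.11 times, while among KO-labelled libraries it was lower in MPPs than in the other two without overlap. *Dnajb1* was 1.68 times higher in WT MPPs than in WT CD115- CDPs without overlap. The HSP70 pair and *Hspb1* overlapped between all populations in both genotypes. Over the 18 libraries the highest value was 568 times the lowest for *Hspa1a*, 5.63 times for *Hsph1*, 3.68 times for *Dnajb1*, 2.22 times for *Hspe1* and 1.63 times for *Hsp90ab1*.

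The inducible HSP70 gene was also compared with the other members. Over 18 libraries *Hspa1a* followed *Hspb1* with r = 0.886 and *Dnajb1* with r = 0.819, and on deviations from group means with 0.892 and 0.754. Its r with *Hsp90ab1* was -0.036. *Hsp90ab1* followed *Hspd1* with r = 0.848 on the values but 0.284 on deviations, so that the likeness lay between the group means. Among non-members, *Hspd1* was most like *Nsun2* (r = 0.911), *Adarb2* (0.903), *Ppid* (0.894), *Cd320* (0.886) and *Hspa9* (0.885) on values, and most like *Car2* (0.845), *Cacybp* (0.827), *Mgmt* (0.823), *Rnmtl1* (0.822) and *Mrps5* (0.819) on deviations.

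Other chaperone genes are set beside the members by family. By limma's adjusted p, 3.84%, 0.106% and 14.3% of all genes passed in MPPs, CD115- CDPs and CLPs, and 5.41% were higher in CLPs. At an unadjusted p of at most 0.05, 24.2%, 10.5% and 29.6% of all genes passed in MPPs, CD115- CDPs and CLPs. With the replicate block 9.34% of all genes passed in CD115- CDPs, and the genes that passed as higher made up 3.78% of all genes. In CLPs 20.9% of all genes passed with the block. Of 11 other mitochondrial chaperones 1 rose in KO-labelled CLPs, *Hspa9*, the mitochondrial HSP70 that feeds clients to HSP60. *Hspa9* was at 112.53, 103.79 and 114.16 FPKM in WT and 162.41, 158.74 and 151.87 FPKM in KO-labelled CLPs, with no overlap (difference 0.51, SE 0.0915, limma adjusted p = 0.00746). In CD115- CDPs 0 of the 11 passed without the block (1 at an unadjusted p of at most 0.05) and 4 rose with it, *Hspa9* among them (limma adjusted p = 0.0418). Their median differences were 0.05, 0.30 and 0.17 in MPPs, CD115- CDPs and CLPs, beside -0.11, -0.07 and 0.01 over all genes. In MPPs 0 passed by limma, and 2 did at an unadjusted p.

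The 8 subunits of the CCT chaperonin, the cytosolic ring that folds actin and tubulin, had positive differences in all 3 populations. In CLPs 2 rose, *Cct4* (0.50, SE 0.0932) and *Cct8* (0.39, SE 0.106), with limma adjusted p of 0.00908 and 0.0442, and in CD115- CDPs and MPPs 0 passed by limma (7 and 3 at an unadjusted p of at most 0.05). With the replicate block 5 rose in CD115- CDPs, where 3.78% of all genes did. All 8 lay above WT without overlap there, beside 7.68% of all genes. The medians were 0.17, 0.40 and 0.32 in MPPs, CD115- CDPs and CLPs. By the replicate-number test 0 of the 8 passed with limma, also at an unadjusted p, at which 43.2% of all genes passed.

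Of 20 co-chaperones of HSP70 and HSP90, 2 rose and 1 fell in KO-labelled CLPs, where 14.3% of all genes passed. The risers were *Ppid* (0.56, SE 0.0882), a cyclophilin of HSP90 complexes, and *St13* (0.39, SE 0.0909), which encodes the HSP70-interacting protein HIP, and *Fkbp5* (-0.77, SE 0.142), a steroid-receptor immunophilin, fell, with limma adjusted p of 0.00392, 0.0246 and 0.00897. In CD115- CDPs and MPPs 0 passed (7 and 0 at an unadjusted p), and 1 rose in CD115- CDPs with the block. Their medians were 0.04, 0.15 and 0.09 in MPPs, CD115- CDPs and CLPs. Of 12 HSP40 co-chaperones 1 rose in CLPs, the ribosome-associated *Dnajc2* (0.40), and 1 fell, *Dnajb5* (-0.62), with limma adjusted p of 0.0379 and 0.0128. In MPPs and CD115- CDPs 0 of the 12 passed (2 and 1 at an unadjusted p), and the medians were 0.06, 0.01 and 0.01 in MPPs, CD115- CDPs and CLPs.

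The other small heat shock proteins were mostly too low to be tested. Of 7 genes 3 passed the filter, and 2 of these fell in KO-labelled CLPs, *Hspb6* (-0.86, SE 0.150) and *Cryab* (-0.61, SE 0.130), with limma adjusted p of 0.00691 and 0.0163. In MPPs and CD115- CDPs 0 passed (0 and 1 at an unadjusted p), and the medians were -0.14, -0.29 and -0.61 in MPPs, CD115- CDPs and CLPs. Of 8 HSP70 and HSP110 paralogs 7, 6 and 7 passed the filter in MPPs, CD115- CDPs and CLPs, and 0 passed the test in any of them by limma (2, 0 and 3 at an unadjusted p), with medians of -0.03, -0.22 and 0.08.

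Of the heat shock factors themselves 3 of 4 passed the filter and 0 passed the test (0, 1 and 0 at an unadjusted p in MPPs, CD115- CDPs and CLPs, by limma), with medians of -0.03, 0.15 and 0.06. *Hsf1*, the factor that drives the inducible members, lay between 29.06 and 42.96 FPKM in all 18 libraries, and 0 of the 3 factors passed the replicate-number test by limma, also at an unadjusted p. Its activity is set after translation and was not measured. Of 20 tested genes of a list of other HSF1 targets, some of which are also in the co-chaperone lists, 2 fell in MPPs, *Hmox1* (-1.61, SE 0.178) and *Serpinh1* (-0.81, SE 0.136), with limma adjusted p of 0.00854 and 0.0306. In CLPs *Cacybp* rose (0.55) and *Serpinh1* (-1.71), *Cryab* and *Dedd2* (-0.46) fell, with limma adjusted p of 0.0211, 0.000487, 0.0163 and 0.0217, and in CD115- CDPs 0 passed (2 at an unadjusted p). *Hmox1* degrades haem and *Serpinh1* folds collagen, and the list medians were -0.03, 0.04 and -0.04 in MPPs, CD115- CDPs and CLPs.

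The endoplasmic reticulum has its own HSP70 and HSP90. Of 13 ER chaperones 3 fell in KO-labelled CLPs, *Sil1* (-0.79, SE 0.124), *Dnajb11* (-0.51, SE 0.101) and *Pdia4* (-0.38, SE 0.105), with limma adjusted p of 0.00406, 0.0117 and 0.0472. In MPPs and CD115- CDPs 0 passed (0 and 0 at an unadjusted p, by limma), and the medians were -0.05, 0.09 and -0.25 in MPPs, CD115- CDPs and CLPs. By the replicate-number test 8 of 13 passed, *Hspa5* (BiP) among them. In CD115- CDPs and CLPs 0 of the 18 immediate early genes passed (2 and 1 at an unadjusted p, by limma), with medians of 0.00 and -0.14. With the replicate block 2 rose in CD115- CDPs, and in CLPs 3 rose and 3 fell. In CLPs the block also took the ER chaperones that fell from 3 to 5, the HSP40 co-chaperones from 1 to 2 that rose and from 1 to 3 that fell, and the HSP70 and HSP110 paralogs from 0 to 1 that fell, and in CD115- CDPs the HSF1 targets from 0 to 1 that rose.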

How the data were processed

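RNA-seq was done on sorted bone marrow progenitors, 3 libraries per genotype label in each of 3 populations. Per the labels and the methods of the study, single-end 50-base BGISEQ-500 reads were filtered with SOAPnuke and mapped with Bowtie2 v2.2.5, and RSEM v1.2.12 gave gene levels (HISAT2 v2.0.4 served for BAM files; build mm10). The authors deposited these levels as FPKM (reads divided by transcript length and by the library's mapped reads) with 2 decimals, 1 table per population of 19710, 19710 and 18378 genes. Whole reads could not be recovered from them, so no count test was run. The tables also hold the names of genes and transcripts. Strand was not given in the sources used here.

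Groups followed the labels. Values were analysed as log2(FPKM + 1), with a pseudocount of 1, which understates changes of low genes. Genes averaging 0.5 FPKM or more in a fit were tested with limma 3.58.1 (R 4.3.3, eBayes with trend), and p-values were adjusted over all genes tested by Benjamini-Hochberg. A gene passed at an adjusted p of at most 0.05. KO minus WT was tested within each population, and F tests over all 18 libraries addressed the interaction and the replicate number. The members and the gene lists were chosen with earlier results of these data known, which results is not recorded, and p-values of members are no independent support. Besides the 10 members, each list names the genes that passed, up to the 4 with the smallest p per population, and the 5 genes most like *Hspa1a* plus *Hspa1b* and *Hspd1* were taken by Pearson's r. For *Nr4a1*, *Atf3*, *Hspa5*, *Hsf1* and *Fos*, naming followed inspection of their values.

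The replicate numbers in the labels are shared by WT and KO. Deviations from group means of libraries with the same number were correlated over genes. In CD115- CDPs r was 0.437, 0.671 and 0.790, and in CLPs it was 0.400, 0.329 and 0.131. Between different numbers r ranged from -0.784 to 0.663 in CD115- CDPs and from -0.399 to 0.234 in CLPs. CD115- CDP WT library 2 with KO-labelled library 1 (0.663) exceeded the pair numbered 1. CLP WT library 3 with KO-labelled library 2 (0.234) exceeded the pair numbered 3. In these populations the numbers were taken to pair the libraries, from the data and not from the labels. In MPPs r was 0.038, 0.482 and 0.472 (mean 0.331, against 0.287 in CLPs), and -0.492 to 0.262 between different numbers. The numbers were not taken to pair MPP libraries, but these r values do not set MPPs apart from CLPs. Calls made only with the block therefore rest on an assumed pairing.

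Alternatives were another pseudocount, other filters, TPM, median-ratio and quantile scaling, limma without a trend, *Hspa1a* and *Hspa1b* merged, the replicate block, a minimum fold change and each library left out. The fits were tested on simulated data before use. With 3 libraries against 3, an exact permutation test of a single gene cannot go below p = 0.1, and none is given. Promoter sequences came from RefSeq (GRCm38.p6). Python 3.11.15 and pandas 2.3.3 were used.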

Additional observations from a re-analysis of the deposited data

How the results depend on the processing

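Of the 10 members' genotype differences in 3 populations, 278 of 294 values kept their direction and their side of the threshold under the settings other than leaving out 1 library. In MPPs 1 member passed. The count was 0 when a log2 difference of 1 or more either way was also required. It was 5 without the libraries numbered 3 and 0 to 5 with 1 library left out. The replicate block, whose numbers were not taken to pair MPP libraries, left the count at 1 (*Dnajb1*, limma adjusted p = 0.0228). The block took the genes called from 475 to 297. In CD115- CDPs 0 passed, 3 with the replicate block. In CLPs 1 passed, 2 as TPM (*Hsp90ab1*, limma adjusted p = 0.0432), 3 with the replicate block, 0 with the minimum fold change and 0 to 1 with 1 library left out. For the interaction the count of 0 became 4 with the replicate block and 1 without the libraries numbered 3. For the replicate number the count of 8 became 4 without the expression filter, 5 with the minimum fold change and 4 to 8 with 1 library left out. The replicate block changed no other call of a member, and the cause of these changes was not tested.

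Signs turned, none past the threshold, under median-ratio scaling in MPPs for *Hspa8* (0.07) and *Hsp90aa1* (0.08), and under quantile normalization for *Hsp90aa1* (0.01) and *Hspe1* (-0.03) in MPPs and *Hspa8* in CD115- CDPs (-0.10) and CLPs (-0.05). With 1 library left out, differences ranged in MPPs from -0.08 to 0.02 for *Hsp90aa1* and -0.01 to 0.14 for *Hspe1*, in CD115- CDPs from -1.89 to 1.18 for *Hspa1a*, -1.87 to 1.29 for *Hspa1b* and -0.49 to 0.74 for *Hspb1*, and in CLPs from -1.38 to 1.95 for *Hspa1a*, -1.22 to 1.95 for *Hspa1b*, -0.43 to 2.02 for *Hspb1*, -0.08 to 0.34 for *Hspa8*, -0.22 to 0.68 for *Hsph1*, -0.03 to 0.45 for *Hspe1* and -0.63 to 0.20 for *Dnajb1*.

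As TPM the median over all genes in CD115- CDPs moved from -0.07 to -0.19. Of MPP calls 8.21% were higher (39 against 436 lower), 17.8% under median-ratio scaling (74 and 341) and 22.4% under quantile normalization (56 and 194). FPKM carries no counts, so counting error is not given, and at 19300000 to 21200000 reads *Hspb1* rests on about 1 to 853 reads a library.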
